A study of Mus musculus with 4 samples.

Results

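A set of 10 genes of the cell's defence against oxidants and reactive metals were followed through myeloid cells sorted from mouse brains that carried lung cancer metastases. They are the metallothionein genes Mt1 and Mt2, the glutathione genes Gclm and Gstm1, the thioredoxin-system genes Txnrd1, Srxn1 and Prdx1, and the enzyme genes Gpx1, Sod1 and Nqo1. They were taken by symbol, 10 of 15654 genes with a row in at least 1 of the 4 deposited tables, by a list drawn up with earlier results of these data known. All 10 were found in the BMDM and microglia tables with radiation and 9 in those without, where Nqo1 has no row. The strain in all 4 groups was the athymic nude Balb/C mouse, given as CAnN.Cg-Foxn1nu/Crl, which lacks a normal thymus and the T cells that mature there. Cells were sorted by flow cytometry into 384-well plates as microglia, the resident macrophages of the brain, or as BMDM, the blood-borne macrophages that derive from bone marrow. Plates came from mice without whole brain radiation therapy (WBRT), with the tumor stage label small, or from mice with it, labelled d3/5x2 Gy (5 fractions of 2 Gy, the starting point of d3 not being stated) and not stratified for stage. There is 1 plate per group, the labels name no animals, and the tumor cells used are not stated. Stage, plate and treatment therefore cannot be told apart, no test across samples was possible, and every difference below is between libraries.

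Cells handle hydrogen peroxide and electrophiles with glutathione, a small thiol peptide, and with thioredoxin, a small thiol protein, each of which is recharged by its own reductase. Under oxidative stress the transcription factor Nrf2 (gene Nfe2l2) escapes its inhibitor Keap1 and switches on glutathione and thioredoxin genes through antioxidant response elements in their promoters. Metallothioneins are small cysteine-rich proteins that bind zinc and copper, and their genes answer to the metal-sensing factor Mtf1 through metal response elements and also to glucocorticoids. In brain, astrocytes are a rich source of metallothioneins and of glutathione transferases, while macrophages need peroxide removal because their own oxidase makes superoxide.

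Mt2 and Mt1 are neighbours that differed in their ratio between plates. Gclm, Srxn1 and Prdx1 stood higher in wells poor in the nuclear RNA Malat1 in at least 1 plate. The promoters of these 5 genes are shown, and no level was tested against them. Each runs from 250 bases before to 50 bases after the RefSeq start (GRCm38.p6), 5′ to 3′ along the gene's strand, which is the plus strand for all 5. Capitals mark matches, on either strand, to the antioxidant response element core TGACNNNGC or to the metal response element core TGCACNC or TGCGCNC. Coordinates are chr8:94172368-94172667 for Mt2, chr8:94178839-94179138 for Mt1, chr3:122245307-122245606 for Gclm, chr2:152105274-152105573 for Srxn1 and chr4:116685349-116685648 for Prdx1.
Mt2: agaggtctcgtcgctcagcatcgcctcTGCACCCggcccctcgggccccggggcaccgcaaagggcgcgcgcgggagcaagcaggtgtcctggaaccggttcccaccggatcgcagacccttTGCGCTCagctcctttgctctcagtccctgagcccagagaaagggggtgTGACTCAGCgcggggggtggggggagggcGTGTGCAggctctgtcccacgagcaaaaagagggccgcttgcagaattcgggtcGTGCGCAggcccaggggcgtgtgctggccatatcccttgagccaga
Mt1: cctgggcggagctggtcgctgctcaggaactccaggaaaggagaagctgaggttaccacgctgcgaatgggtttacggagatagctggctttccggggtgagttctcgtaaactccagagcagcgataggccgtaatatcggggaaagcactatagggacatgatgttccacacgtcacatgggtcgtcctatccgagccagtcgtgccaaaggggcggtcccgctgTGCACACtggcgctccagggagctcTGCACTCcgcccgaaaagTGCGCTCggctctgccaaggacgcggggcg
Gclm: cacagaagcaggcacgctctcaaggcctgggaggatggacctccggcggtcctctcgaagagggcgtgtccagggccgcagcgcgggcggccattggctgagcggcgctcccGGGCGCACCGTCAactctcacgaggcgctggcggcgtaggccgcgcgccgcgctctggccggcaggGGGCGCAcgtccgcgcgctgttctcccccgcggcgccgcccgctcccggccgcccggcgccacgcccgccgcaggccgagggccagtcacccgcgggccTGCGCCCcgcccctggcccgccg
Srxn1: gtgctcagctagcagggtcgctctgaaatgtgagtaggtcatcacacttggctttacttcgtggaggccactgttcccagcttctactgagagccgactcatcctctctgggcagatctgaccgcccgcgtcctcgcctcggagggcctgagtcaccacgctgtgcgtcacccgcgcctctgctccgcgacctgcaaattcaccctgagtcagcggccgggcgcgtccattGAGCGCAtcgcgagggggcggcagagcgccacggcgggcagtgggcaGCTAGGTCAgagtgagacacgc
Prdx1: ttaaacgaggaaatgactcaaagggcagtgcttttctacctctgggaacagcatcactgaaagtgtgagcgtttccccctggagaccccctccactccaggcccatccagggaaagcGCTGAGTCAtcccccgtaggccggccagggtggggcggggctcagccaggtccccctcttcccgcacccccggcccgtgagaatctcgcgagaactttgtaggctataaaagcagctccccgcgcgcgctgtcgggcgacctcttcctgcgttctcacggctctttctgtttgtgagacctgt

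All 10 genes had a promoter in the RefSeq table, in 13 windows, Txnrd1 having 3 and Gstm1 having 2 start sites in the table. An antioxidant response element core was found for 6 of the 10 genes (Mt2, Gclm, Txnrd1, Srxn1, Prdx1 and Sod1) and in 12.4% of all 32851 promoter windows of the table. A metal response element core was found for 5 genes (Mt1, Mt2, Gclm, Gstm1 and Srxn1) and in 25.7% of all windows. A gene was counted if any of its windows matched, while the percentages count windows, so they are not like for like. Only 1 of the 3 Txnrd1 windows held an antioxidant core, and the Gstm1 windows overlap and share their metal core. The Mt2 window held 4 metal cores, as did 0.52% of all windows, and 1 antioxidant core. The Mt1 and Gclm windows held 3 metal cores each, a number reached by 1.97% of all windows, and in Gclm the antioxidant core overlaps a metal core. No core of either kind was found in the windows of Nqo1 or Gpx1. A match describes the letters only. Mt2 (chromosome 8, 94172664 to 94173568) ends 5513 bases before Mt1 begins (94179082 to 94180327) in the GENCODE annotation of GRCm38, and both genes lie on the plus strand.

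Wells with at least 1000 counts outside mitochondrial and spike-in (ERCC) rows and an ERCC share under 50% were kept: for BMDM, 234 of 384 without and 262 with WBRT, and for microglia 157 without and 151 with it. The pooled libraries held 589445 to 2325120 transcripts, with medians of 2362 to 8060 per well. Microglia with WBRT stood apart: the median ERCC share was 30.6% there against 6.92% to 7.86% in the others, and 69.5% of its wells had under 1000 CPM (a gene's share of the counts outside ERCC and mitochondrial rows, on the usual scale) of Malat1, against 6.84% and 20.6% of BMDM wells without and with WBRT and 43.3% of microglia wells without. Marker sums were set beside the sort labels: 12 microglia markers summed to 11224 and 12452 CPM in the microglia plates and 4053 and 3806 CPM in the BMDM plates, and 10 monocyte markers to 102 and 105 against 2980 and 1949 CPM. Within BMDM, 10 macrophage markers stood at 624 CPM without and 3090 CPM with WBRT, and 12 dendritic cell markers at 2297 and 214 CPM. In the microglia plates the macrophage markers stood at 160 CPM without and 882 CPM with WBRT, and the dendritic cell markers at 327 and 367 CPM. Microglia wells with 3 or more macrophage markers numbered 7 without and 34 with WBRT. Astrocyte markers, 16 in all, summed to 54.7, 61.9 and 140.0 CPM in the first 3 libraries, with 3 to 7 of them at 0, and to 1992 CPM in microglia with WBRT, where only Plpp3 was at 0. The other cell lists summed to 0 to 15.3 CPM for neurons, 95.5 to 199.8 for oligodendrocytes, 250.2 to 422 for endothelial and mural cells, 209 to 373 for neutrophils, 8.48 to 96.5 for T, NK and B cells, 3.82 to 33.0 for epithelial or tumor cells and 0 to 3.39 for erythroid cells.

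Below, the 4 values of a gene are pooled CPM in the order BMDM without and with WBRT, then microglia without and with WBRT. In pooled values, more cells with a transcript and more transcripts per cell cannot be told apart. Ranges in parentheses are 95% intervals for counting error alone, as if transcripts of a well were independent, which they are not. A fold is a ratio of CPM, and a log2 ratio is taken on CPM + 5. A gene was compared when it had at least 20 CPM in 1 of the 2 libraries, and was called higher or lower at a log2 ratio of 1 or more in size.

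In microglia, 4 of the 9 genes compared were at least 2-fold higher with WBRT (Gstm1, Mt2, Gclm and Srxn1) and none was at least 2-fold lower, where 9.90% and 8.26% of the 7030 genes compared were. The median log2 ratio of the 9 genes was 0.86, against 0.05 for all genes compared. In BMDM, 2 of 9 were at least 2-fold higher (Gstm1 and Srxn1) and 1 was at least 2-fold lower (Sod1), where 4.98% and 6.43% of 6808 genes were. The median there was 0.10, against 0.06 for all genes. These directions hold for shares of a library's transcripts. Wells of microglia with WBRT held fewer transcripts per ERCC count (3.60 against 11.4), and on that scale the median of all genes was -1.47 in microglia and -0.18 in BMDM. The 9 genes had medians of -0.69 and -0.13 on it, 0.78 and 0.05 above all genes, and 2 of them (Gstm1 and Mt2) were at least 2-fold higher in microglia and 3 at least 2-fold lower. A microglial fold of shares is multiplied by the ratio of 3.60 to 11.4 when taken per ERCC count.

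**Figure D1:**
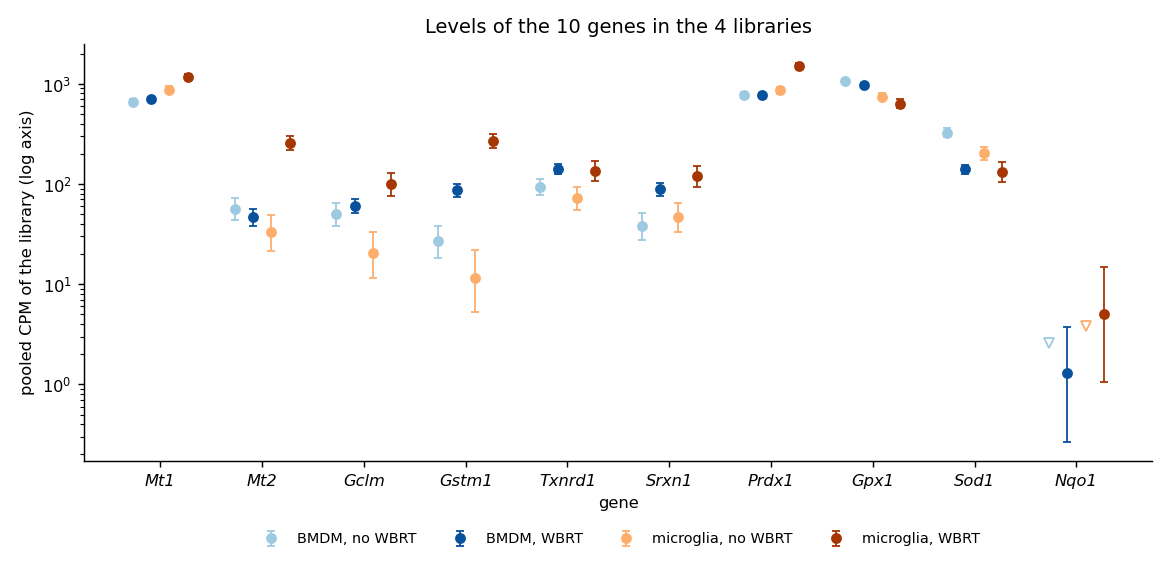
Pooled CPM (log axis) of the 10 genes in the 4 libraries, with 95% counting intervals; open triangles for Nqo1 mark the level of 3 counts in the libraries where it had none. Mt2, Gclm and Gstm1 were highest as a share of transcripts in microglia with WBRT and lowest in microglia without it, while Sod1 was highest in BMDM without WBRT.

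Metallothionein genes are described first. Mt1, which encodes the broadly expressed metallothionein of most tissues, stood at 661, 709.5, 876 and 1169 CPM. It was 1.33-fold (1.199 to 1.49) higher with WBRT in microglia, where it was lower per ERCC count (log2 ratio -1.23), and 1.07-fold (0.98 to 1.17) in BMDM, where the interval holds no difference. The BMDM fold depended on the wells. It was 1.19 (1.09 to 1.31) without the leading Mt1 well of each plate and 1.53 (1.05 to 2.29) in wells under 1000 CPM of Malat1. With 3 or more macrophage markers it was 0.85 (0.74 to 0.97), and with 2 or more dendritic cell markers 0.84 (0.70 to 0.997). On the other side of each split the interval held no difference. The share of wells with an Mt1 transcript was 69.2%, 91.6%, 84.1% and 72.2%. After every well was thinned to 1000 UMIs, it was 36.8%, 47.0%, 52.2% and 50.99%. In the wells left out, with medians of 67.0 to 139 transcripts, it was 6.67% to 27.0%, the highest value being that of microglia with WBRT, where 15 such wells held 1000 counts or more. Mt1 was thus seen in wells of every plate, and the thinned share was lowest in BMDM without WBRT. The interval of BMDM with WBRT (40.8% to 53.2%) overlapped those of microglia without (44.1% to 60.3%) and with WBRT (42.7% to 59.2%).

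Mt2, the neighbouring gene of the same protein family, stood at 56.5, 46.5, 33.1 and 257 CPM. The first 3 libraries lay close together, their neighbouring intervals overlapping, and microglia with WBRT stood above them all. The fold with WBRT was 7.74 (5.08 to 12.2) in microglia and 0.82 (0.60 to 1.14) in BMDM. Per ERCC count, Mt2 in microglia remained higher with WBRT (log2 ratio 1.16). Mt2 was thus far more unequal between the microglia plates than its neighbour Mt1, and the ratio of Mt1 to Mt2 counts was 11.7, 15.3, 26.4 and 4.56.

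Few wells carried Mt2. Transcripts were seen in 9.40%, 15.6%, 7.64% and 23.2% of wells, and in 3.42%, 4.20%, 2.55% and 13.2% after thinning. In the same plates' wells left out it was 0.67%, 4.92%, 0.44% and 7.30%. The thinned share of BMDM with WBRT was thus no higher than that of its wells left out. Those wells had a median of 139 transcripts and Mt2 at 308 CPM from 9 counts, so they give no background level at the same depth. The 5 wells with most Mt2 held 70.8%, 43.5%, 73.1% and 53.7% of its counts. These wells also held Mt1: of 22, 41, 12 and 35 wells with an Mt2 transcript, 16, 41, 11 and 31 held Mt1. In wells with at least 10 Mt1 counts, Mt2 stood at 306, 127, 63.4 and 696 CPM, against 26.3, 21.4, 22.4 and 141 CPM in the remaining wells. Without the well with most Mt2 in each plate, the Mt1-rich wells stood at 199.5, 104, 9.98 and 556 CPM. The higher Mt2 of Mt1-rich wells in microglia without WBRT therefore rested on 1 well, with 2 counts left outside it, while in the other 3 plates it did not. Mt2 in wells with fewer Mt1 counts was highest in microglia with WBRT. Across wells thinned to 1000 UMIs, Spearman's rho of Mt1 and Mt2 was 0.05, 0.12, 0.13 and 0.37 (234, 262, 157 and 151 wells of 1 plate each, sharing library and depth), a description of sparse counts.

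In the microglia plates astrocyte markers moved with the Mt2 difference, as did macrophage markers. With WBRT, microglia wells of 3 or more macrophage markers had Mt2 at 352 CPM and the rest at 221 CPM, 1.59-fold (1.12 to 2.24). Among microglia wells with fewer macrophage markers, Mt2 was 6.16-fold (3.96 to 9.9) higher with WBRT. In microglia with WBRT, 1 well held transcripts of 14 of the 16 astrocyte markers and 89.8% of the library's astrocyte marker counts, beside 5 of 12 microglia markers. The next highest well held 4, and 9 wells held 3 or more. The 14-marker well had 26.1 of the 151 Mt2 counts (17.2%) and 66.5 of the 689 Mt1 counts (9.65%). Without wells of 3 or more astrocyte markers, Mt2 stood at 34.0 against 224 CPM in microglia, 6.60-fold (4.28 to 10.5), and Mt1 at 885 against 1075 CPM, 1.21-fold (1.08 to 1.36). In wells that in addition had at least 1000 CPM of Malat1, Mt2 stood at 31.0 against 107 CPM, 3.45-fold (1.78 to 6.85), from 17 and 24 counts, and Mt1 was 1.17-fold (0.99 to 1.37), which holds no difference. A further set was Malat1-retaining wells with few markers of other cells. These had under 2 dendritic cell markers and under 3 of the astrocyte list and of each of the other cell lists. Monocyte and macrophage markers were not limited. In this set the microglia log2 ratio of Mt2 was 0.77, under the 2-fold limit. In BMDM the sign of the Mt2 difference depended on the weighting: its log2 ratio was -0.26 pooled, 0.27 with every well weighted alike and 0.56 without wells of 2 or more dendritic cell markers. Within dendritic-marker wells Mt2 was 0.29-fold (0.10 to 0.67) with WBRT, and it was lower on both sides of a split by macrophage markers, 0.55-fold (0.36 to 0.88) in wells with 3 or more and 0.21-fold (0.04 to 0.66) in the rest.

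The glutathione genes follow in the order of the pathway. Gclm encodes the modifier subunit that makes glutamate-cysteine ligase, the first enzyme of glutathione synthesis, more efficient. It stood at 50.4, 60.7, 20.4 and 100.1 CPM. It was 4.91-fold (2.79 to 9.15) higher with WBRT in microglia, also per ERCC count (log2 ratio 0.52), and 1.204-fold (0.88 to 1.66) in BMDM. Within the Malat1-poor wells of BMDM it was lower with WBRT, 0.45-fold (0.25 to 0.84). None of its counts came from the 14-marker well, and without wells of 3 or more astrocyte markers it stood at 19.6 against 109 CPM in microglia, 5.56-fold (3.10 to 10.6). Its thinned share of wells was 5.98%, 6.11%, 1.91% and 9.27%, against 1.32% to 4.29% of the wells left out, and its 5 leading wells held 48.3%, 31.2%, 62.5% and 39.0% of its counts. The microglia plate without WBRT was the low one, below all 3 others.

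Gstm1, a cytosolic transferase that couples glutathione to electrophiles, stood at 26.9, 86.5, 11.5 and 269.8 CPM. It was the most unequal of the 10 genes in both sorts: 3.21-fold (2.19 to 4.85) higher with WBRT in BMDM and 23.5-fold (12.1 to 52.4) in microglia, and higher per ERCC count in each (log2 ratios 1.30 and 2.42). In microglia the counts behind this were 9 without and 159 with WBRT, and 93.04 of the 159 (58.5%) came from the 14-marker well, where Gstm1 stood at 5725 CPM. Without wells of 3 or more astrocyte markers it stood at 11.8 against 115 CPM, 9.78-fold (4.81 to 22.4). In wells that also had at least 1000 CPM of Malat1, it stood at 14.6 against 62.4 CPM, 4.28-fold (1.68 to 11.8), from 8 and 14 counts. The microglia difference thus became smaller when wells were left out in this order, and the interval still lay above 1. With only the wells under 1000 CPM of Malat1 left out, it was 25.8-fold (12.7 to 61.3). The thinned share of wells was 1.71%, 9.92%, 1.27% and 11.3%, so it was in more wells of both plates with WBRT. The shares of the plates without WBRT lay close to those of their own wells left out, 1.33% and 0.44%, and rest on few wells.

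In BMDM, Gstm1 followed the macrophage markers. Wells with transcripts of at least 3 of 10 macrophage markers numbered 36 without and 213 with WBRT, and Gstm1 stood at 56.3 and 97.5 CPM in them, 1.73-fold (1.04 to 3.09). In the remaining wells it stood at 17.3 and 18.5 CPM, 1.07-fold (0.34 to 2.91). Within a plate it was 3.26-fold (1.51 to 7.07) higher in macrophage-marker wells without WBRT and 5.28-fold (2.38 to 14.6) with it. Such wells are a range cut from a marker count, not a cell type. Of the 50-base words in the ends of annotated Gstm1 transcripts, 24.1% also occur in 3 other genes, mostly Gstm3, so reads could have been divided among them.

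**Figure D2:**
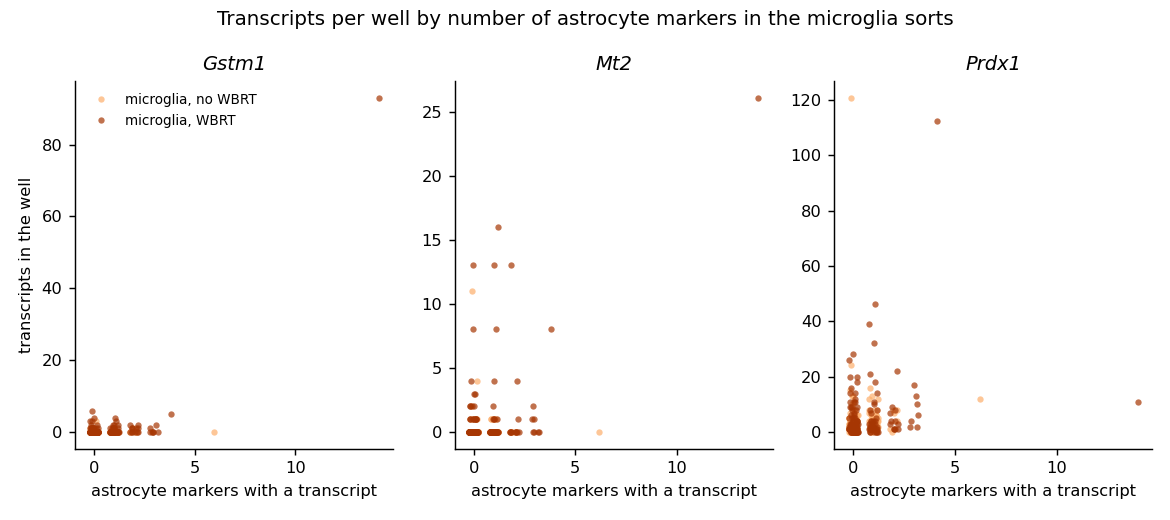
Transcripts of Gstm1, Mt2 and Prdx1 in each kept well of the microglia plates (vertical axis) against the number of the 16 astrocyte markers with a transcript in that well (horizontal axis, jittered). One well with 14 markers holds 93.04 Gstm1 and 26.1 Mt2 transcripts, while the highest Prdx1 wells lie at 0 and 4 markers.

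Txnrd1, the cytosolic thioredoxin reductase, stood at 93.8, 141, 72.6 and 136 CPM. It was 1.504-fold (1.21 to 1.89) higher with WBRT in BMDM and 1.87-fold (1.32 to 2.68) in microglia, where it was lower per ERCC count (log2 ratio -0.69). In microglia wells of at least 1000 CPM Malat1 it was 1.51-fold (0.90 to 2.54), and 1.495-fold (0.84 to 2.61) with fewer than 3 astrocyte markers, intervals that hold no difference. Both plates with WBRT lay above both without, although each neighbour in the order of levels overlapped the next within its interval. Its 5 leading wells held 21.7% to 36.8% of its counts, less than the 43.5% to 73.1% of Mt2. In BMDM wells with fewer and more macrophage markers the fold was 1.30 (0.85 to 1.96) and 1.22 (0.85 to 1.80), intervals that each hold no difference.

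Srxn1 encodes sulfiredoxin, the enzyme that reactivates overoxidized peroxiredoxins. It stood at 38.2, 88.2, 47.1 and 120.5 CPM. It was 2.31-fold (1.66 to 3.27) higher with WBRT in BMDM and 2.56-fold (1.70 to 3.92) in microglia, where it was lower per ERCC count (log2 ratio -0.27). As with Txnrd1, the plates with WBRT formed the upper pair and those without the lower pair, with intervals overlapping inside each pair. In microglia without wells of 3 or more astrocyte markers the fold was 2.38 (1.55 to 3.696). Its microglia log2 ratio was under the limit at 0.98 in wells of at least 3000 counts, 0.80 after thinning and 0.94 without Malat1-poor wells. In BMDM the fold depended on the wells: 3.08 (2.08 to 4.70) in wells of at least 1000 CPM Malat1 and 0.49 (0.25 to 1.01) in the few wells under it, from 30.01 counts with and 14 without WBRT. Without wells of 2 or more dendritic cell markers its BMDM log2 ratio was 0.84, under the 2-fold limit. In BMDM wells of 3 or more macrophage markers the fold was 3.30 (1.64 to 7.76). In the rest it was 1.41 (0.76 to 2.52), which holds no difference. The same 2 sides in microglia had 1.06 (0.36 to 3.77), which holds no difference, and 3.00 (1.91 to 4.78).

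Prdx1, an abundant peroxiredoxin that reduces peroxide with thioredoxin's electrons, stood at 774, 764, 862 and 1509.7 CPM. It differed by 0.99-fold (0.91 to 1.07) between the BMDM plates, with a log2 ratio of -0.02 that was 0.23 with every well weighted alike. Within classes of BMDM wells it was lower with WBRT: 0.80-fold (0.70 to 0.91) with 3 or more macrophage markers, 0.73-fold (0.61 to 0.87) with fewer, 0.67-fold (0.56 to 0.80) with 2 or more dendritic cell markers and 0.71-fold (0.59 to 0.86) in Malat1-poor wells. In wells with fewer dendritic cell markers and in Malat1-retaining wells the intervals held no difference, at 1.097-fold (0.96 to 1.26) and 0.94-fold (0.86 to 1.03). In microglia Prdx1 was 1.75-fold (1.58 to 1.94) higher with WBRT, and lower per ERCC count (log2 ratio -0.85). The microglia difference depended on Malat1. In wells of at least 1000 CPM Malat1, Prdx1 stood at 636 and 667 CPM, 1.05-fold (0.88 to 1.25). In wells under 1000 CPM it stood at 1458 and 2402 CPM, 1.65-fold (1.44 to 1.89). Without wells of 3 or more astrocyte markers the microglia fold was 1.62 (1.46 to 1.81). In wells that had at least 1000 CPM Malat1 as well it was 0.99 (0.80 to 1.20), and the highest Prdx1 wells, with 120.8 and 112.5 counts, were single wells of the plates without and with WBRT. Of the 50-base words at the ends of Prdx1 transcripts, 25.7% also occur in 3 other annotated genes, mostly Gm21399.

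Gpx1, the cytosolic glutathione peroxidase, was the least unequal of the set in its share of transcripts, at 1058, 964, 744 and 633 CPM. It was 0.91-fold (0.85 to 0.98) with WBRT in BMDM and 0.85-fold (0.75 to 0.97) in microglia, where it was also lower per ERCC count (log2 ratio -1.87). On both sides of the macrophage split of BMDM the interval held no difference, at 1.06-fold (0.93 to 1.22) and 1.096-fold (0.97 to 1.23). The sorts differed more than the treatments: it was 1.42-fold (1.29 to 1.57) higher in BMDM than in microglia without WBRT and 1.52-fold (1.36 to 1.70) with it. Its thinned share of wells was 59.8%, 62.6%, 44.6% and 45.7%, which splits the plates in the same way, against 11.01% to 20.5% of the wells left out.

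Sod1, the copper-zinc superoxide dismutase of the cytosol, stood at 325, 139.8, 202 and 132 CPM. It was the one gene of the 10 called lower with WBRT, 2.32-fold (1.998 to 2.70) lower in BMDM. With every well weighted alike its BMDM log2 ratio was -0.92, short of that call. In microglia it was 1.53-fold (1.16 to 2.03) lower, and also lower per ERCC count (log2 ratio -2.13). This microglia difference was smaller with every well weighted alike (log2 ratio -0.20) and is not seen in the thinned share of wells, 14.6% and 15.2%. It was larger in wells of at least 1000 CPM Malat1, 0.45-fold (0.28 to 0.68), or 0.49-fold (0.29 to 0.78) with fewer than 3 astrocyte markers. In Malat1-poor microglia wells it was 0.85-fold (0.56 to 1.31), which holds no difference. In BMDM the thinned shares were 24.8% and 12.98%, against 2.0% to 4.41% of the wells left out. The BMDM value was lower with WBRT in each split by markers: 0.65-fold (0.49 to 0.85) in wells of at least 2 dendritic cell markers, 0.43-fold (0.34 to 0.54) in wells with fewer, 0.40-fold (0.32 to 0.52) in wells of at least 3 macrophage markers and 0.70-fold (0.54 to 0.91) in the rest. In Malat1-poor BMDM wells the interval held no difference, 0.75-fold (0.41 to 1.44). Of the end words of Sod1 transcripts, 18.2% also occur in Gm8566.

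Nqo1, a quinone reductase and a standard readout of Nrf2, had 0, 3, 0 and 3 counts in the 4 libraries. That is at most the floor of 3 counts in every library, so no fold was taken. The upper 95% limits of the 0 counts are 3.20 CPM in BMDM and 4.70 CPM in microglia without WBRT. All 3 counts of microglia with WBRT came from the 14-marker well, and the 3 counts of BMDM with WBRT from 3 wells. Nqo1 was therefore not detectable at this depth in any well of microglia with WBRT other than that one.

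**Figure D3:**
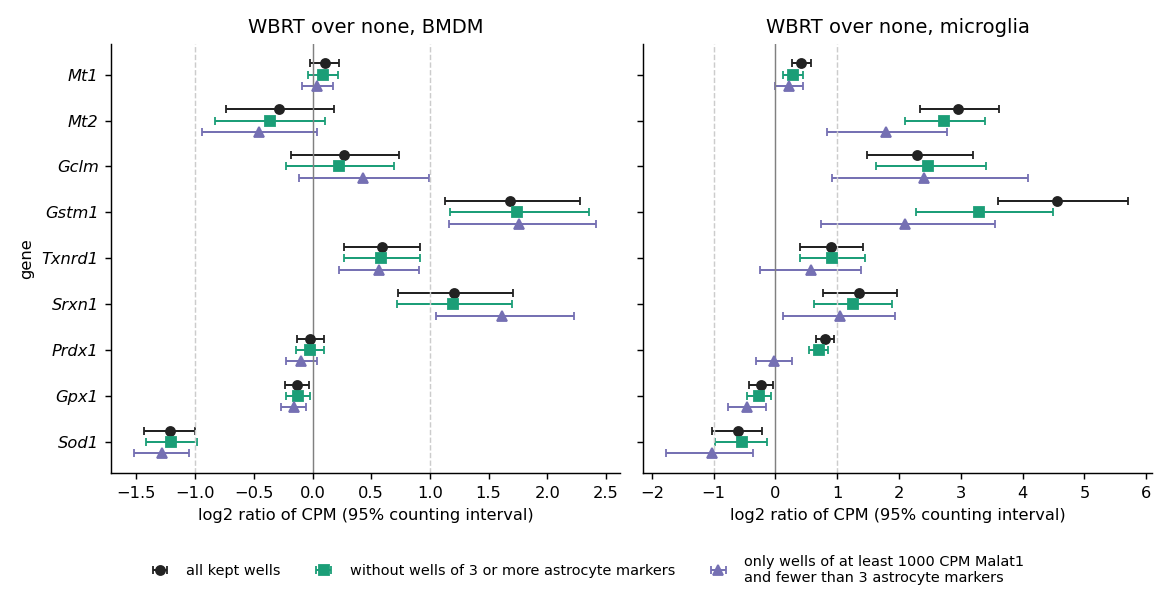
Log2 ratio of CPM (horizontal axis, with 95% counting intervals) of WBRT over none for 9 genes in BMDM and microglia, from all kept wells, without wells of 3 or more astrocyte markers, and from wells of at least 1000 CPM Malat1 with fewer than 3 astrocyte markers. In microglia, Gstm1, Mt2 and Prdx1 moved toward 0 as wells were left out, while Gclm did not. Within Malat1-poor BMDM wells, which are not drawn, Srxn1 was 0.49-fold (0.25 to 1.01) with WBRT, an interval that holds no difference. Ratios are of shares of transcripts, and per ERCC count Mt1, Txnrd1, Srxn1 and Prdx1 were lower with WBRT in microglia and Mt1 in BMDM.

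The sorts were compared next. Without WBRT, 1 of 9 genes was at least 2-fold higher in BMDM than in microglia (Gclm, 2.47-fold, 1.40 to 4.61), where 10.3% of 6889 genes were, and none was at least 2-fold lower, where 7.46% were. The median log2 ratio was 0.51, against 0.00 for all genes. With WBRT, none was at least 2-fold higher, where 7.92% of 7024 genes were, and 2 were at least 2-fold lower in BMDM, where 7.84% were. These were Mt2, 5.52-fold lower (4.28 to 7.13), and Gstm1, 3.12-fold lower (2.52 to 3.86). The 14-marker well held 17.2% of the Mt2 and 58.5% of the Gstm1 counts of its library. With wells of 3 or more astrocyte markers left out, the BMDM plate had 44.3 CPM of Mt2, against 224 CPM for the microglia plate. For Gstm1 the gap was smaller, 85.1 against 115 CPM. Over all kept wells, the median of the 9 genes was -0.68, against 0.04 for all genes. Sod1 was 1.61-fold (1.33 to 1.94) higher in BMDM without WBRT and 1.06-fold (0.82 to 1.37) with it.

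Prdx1 and Gclm differed between kinds of wells inside every plate. Malat1 is an abundant RNA held in the nucleus, and wells with little of it are commonly read as cells that lost their nucleus or part of their RNA. Wells under 1000 CPM Malat1 numbered 16, 54, 68 and 105, and 8, 17, 20 and 6 wells lay between 800 and 1250 CPM, near the limit. Their median depth was 2335, 3380, 2286 and 2020 transcripts, against 4152, 9373, 5513 and 5835 in the rest. Prdx1 stood at 2475, 1762, 1458 and 2402 CPM in Malat1-poor wells and at 682, 639, 636 and 667 CPM in the rest. It was 3.64-fold (3.03 to 4.34), 2.76-fold (2.47 to 3.07), 2.30-fold (1.97 to 2.68) and 3.61-fold (3.08 to 4.24) higher. In wells that retained Malat1 the 4 plates thus lay within a narrow range, and the plate with most Malat1-poor wells had the highest pooled value. In BMDM, Malat1-poor wells made up 6.84% without and 20.6% with WBRT, while pooled Prdx1 stood at 774 and 764 CPM.

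Gclm showed the same order in every plate. It stood at 304, 136, 41.7 and 157 CPM in Malat1-poor wells and 36.6, 51.3, 12.3 and 46.2 CPM in the rest, 8.29-fold (4.47 to 14.8), 2.65-fold (1.75 to 3.91), 3.39-fold (1.12 to 10.7) and 3.40-fold (1.83 to 6.72). Gclm was at least 2-fold higher in Malat1-poor wells of all 4 plates, as was Prdx1. Srxn1 was higher in the 16 Malat1-poor wells of BMDM without WBRT, at 236 against 27.5 CPM, 8.60-fold (4.21 to 16.7), and by 1.27-fold (0.58 to 2.62) to 1.73-fold (1.05 to 2.90) in the other plates. Counts of genes at least 2-fold higher in Malat1-poor wells were 3 of 9, 2 of 9, 2 of 8 and 2 of 9, where 13.5%, 2.62%, 6.29% and 10.7% of all genes compared were. For 2-fold lower they were 0, 0, 0 and 1 (Gstm1 in microglia with WBRT), where 24.1%, 10.5%, 13.5% and 28.4% were. The median log2 ratios were 0.71, 0.44, 0.37 and 0.86, against -0.17, -0.10, -0.10 and -0.24 for all genes.

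Mt1 did not follow this split: 0.81-fold (0.55 to 1.15), 1.19-fold (1.03 to 1.38), 1.07-fold (0.91 to 1.27) and 0.996-fold (0.86 to 1.16). Mt2 was 2.02-fold (1.43 to 2.88) higher in Malat1-poor wells of microglia with WBRT, at 346 against 172 CPM, with the 14-marker well among the rest. With both sides taken apart, the counts of genes at least 2-fold higher with WBRT in microglia were 4 of 9 in Malat1-poor wells, where 15.6% of all genes were, and 3 of 9 in the rest, where 15.3% were. None and 1 (Sod1) were lower, where 18.7% and 10.1% of all genes were. Mt2, Gstm1 and Gclm were called on both sides, and they alone in wells of at least 1000 CPM Malat1 and fewer than 3 astrocyte markers, where 14.9% of genes were higher and 11.8% lower. In BMDM, 1 gene was higher (Gstm1) and 1 lower (Gclm) in Malat1-poor wells, where 22.6% and 19.5% of all genes were. In the rest 2 were higher and 1 lower, where 5.22% and 6.49% were, and the same held with fewer than 3 astrocyte markers (5.22% and 6.51%). Gclm had 3.77-fold (1.82 to 8.77) on the poor side and 3.76-fold (1.42 to 11) on the other, and both intervals hold the 4.91-fold over all wells.

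**Figure D4:**
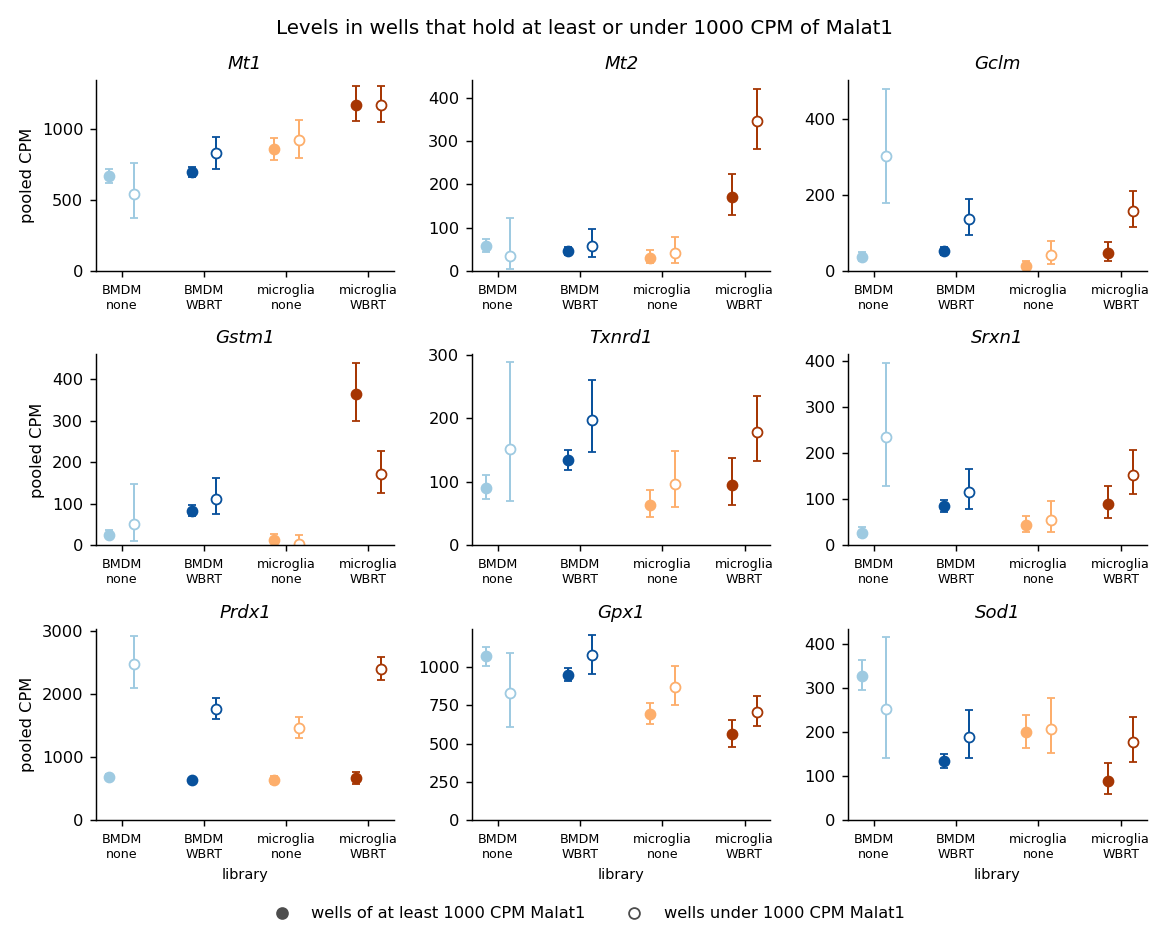
Pooled CPM (vertical axes, starting at 0) of 9 genes in wells of at least 1000 CPM Malat1 (filled) and under it (open) in each library, with 95% counting intervals. Prdx1 and Gclm were higher in the open symbols in all 4 libraries, and the filled Prdx1 symbols lie between 636 and 682 CPM.

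Other genes of the same pathways, from lists chosen with earlier results of these data known, were summarised in the same way, to be read beside the 4.98% higher and 6.43% lower of all genes compared in BMDM and the 9.90% and 8.26% in microglia. The astrocyte markers moved with the microglia comparison, all 13 compared being at least 2-fold higher with WBRT, so microglia folds are also given without wells of 3 or more of them. All 7 macrophage markers compared in microglia were also at least 2-fold higher, and wells with them were not left out. Of 13 glutathione genes compared in BMDM, 3 were at least 2-fold higher with WBRT and none lower, with a median log2 ratio of 0.33. Of 16 in microglia, 4 were higher and none lower, with a median of 0.48. Gclc, the catalytic subunit partnered by Gclm, stood at 27.8 and 80.0 CPM in BMDM, 2.88-fold (1.97 to 4.33), and at 50.9 and 136 CPM in microglia, 2.67-fold (1.80 to 4.0), or 3.08-fold (2.03 to 4.76) without astrocyte-marker wells. Slc7a11, the cystine carrier that feeds glutathione synthesis, stood at 13.03 and 54.7 CPM in BMDM, 4.19-fold (2.45 to 7.71). Glrx2, a glutaredoxin, was on the other side in BMDM, at 127 and 80.4 CPM, 0.63-fold (0.51 to 0.79), and stood at 146 and 205 CPM in microglia. Without astrocyte-marker wells its microglia fold was 1.31 (0.99 to 1.72), which holds no difference.

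Of genes of thioredoxins, peroxiredoxins and peroxide removal, 1 of 16 was at least 2-fold higher in BMDM and 3 of 17 in microglia, and none was lower in either, with medians of 0.20 and 0.45. The BMDM share is near that of all genes. Msrb1, which repairs oxidized methionine, was higher in both, 2.51-fold (2.05 to 3.10) in BMDM and 2.80-fold (1.89 to 4.22) in microglia, or 3.33-fold (2.22 to 5.09) without astrocyte-marker wells. Prdx6, a peroxiredoxin that uses glutathione, stood at 21.6 and 81.5 CPM in microglia, 3.76-fold (2.13 to 6.98), and at 22.2 and 57.5 CPM without astrocyte-marker wells, 2.59-fold (1.38 to 5.02). Cat, the peroxisomal catalase, stood at 67.5 and 122 CPM there, 1.81-fold (1.25 to 2.63), or 1.90-fold (1.30 to 2.79) without astrocyte-marker wells. Prdx5 stood at 194 and 364 CPM in BMDM, 1.88-fold (1.62 to 2.19).

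Of genes of the Nrf2 pathway and its other targets, 2 of 26 were at least 2-fold higher and 2 lower in BMDM, and 5 of 25 higher and 2 lower in microglia, with medians of 0.38 and 0.57. In BMDM both shares are near those of all genes. Hmox1, which breaks down heme, stood at 747 and 3005 CPM in microglia, 4.02-fold (3.66 to 4.42), or 4.26-fold (3.86 to 4.69) without astrocyte-marker wells. Ftl1, the light chain of the iron store ferritin, stood at 8512 and 22830 CPM (2.68-fold, 2.60 to 2.76), and the heme transporter gene Slc48a1 at 89.1 and 269.8 CPM (3.03-fold, 2.27 to 4.07). Without astrocyte-marker wells these were 2.74-fold (2.66 to 2.83) and 3.53-fold (2.62 to 4.79). Mafk, a small Maf partner of Nrf2, went the other way, at 146 and 25.5 CPM in microglia and 92.1 and 36.6 CPM in BMDM. In BMDM, Keap1 stood at 79.9 and 35.7 CPM, and Bach1, a repressor of Nrf2 targets, at 73.8 and 165 CPM. Genes that restrain the response were thus found on both sides in BMDM. Per ERCC count, all the microglial folds named here from all kept wells, other than those of Hmox1 and Prdx6, would lie below 1.

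Metal handling genes had medians of 0.10 in BMDM and -0.02 in microglia, with 1 of 16 and 1 of 18 at least 2-fold higher and 1 lower in each, so the Mt2 difference was not shared by this list as a whole. The zinc exporter gene Slc30a1, a known target of Mtf1, stood at 21.7 and 55.9 CPM in BMDM (2.57-fold, 1.67 to 4.12) and 24.2 and 52.6 CPM in microglia (2.17-fold, 1.19 to 4.07), or 1.84-fold (0.96 to 3.57) in microglia without astrocyte-marker wells, which holds no difference. Of glucocorticoid response genes none of 8 was at least 2-fold higher in either sort, and 1 and 2 were lower. Their median log2 ratios were -0.15 in BMDM and 0.002 in microglia, with 2 and 4 of the 8 ratios above 0. Fkbp5, a chaperone gene switched on by glucocorticoids, stood at 79.0 and 31.8 CPM in BMDM and 108 and 32.2 CPM in microglia. Per1, a clock gene with a glucocorticoid response, stood at 152 and 56.0 CPM in microglia. Cebpd, of the same list, was on the other side in microglia without astrocyte-marker wells, at 62.8 and 135 CPM, 2.15-fold (1.46 to 3.18). The 9 genes compared of the phagocyte oxidase and oxidant production had median log2 ratios of 0.25 in BMDM and 0.26 in microglia.

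**Figure D5:**
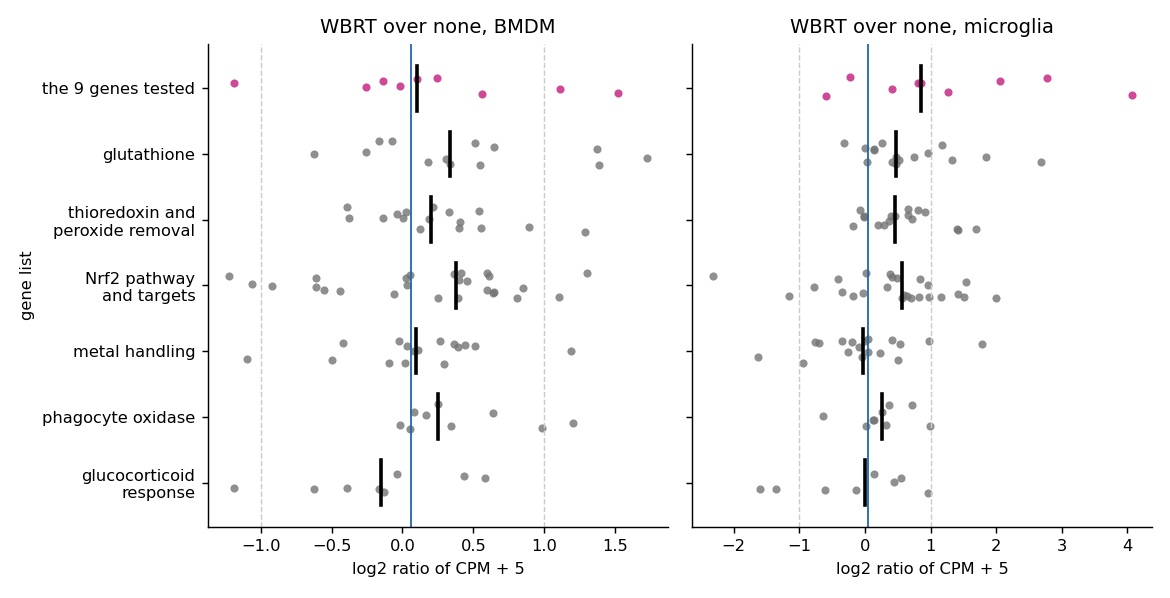
Log2 ratio of CPM + 5 (horizontal axis) of WBRT over none in BMDM and microglia for the 9 genes compared and for the genes of 6 pathway lists; 1 point is 1 gene, black bars are list medians, the blue line is the median of all genes compared and dashed lines mark 2-fold. The median of the 9 genes lies at 0.10 in BMDM and 0.86 in microglia; ratios are of shares of transcripts, and per ERCC count the median of all genes was -0.18 and -1.47.

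Genes with the most similar pattern over the 4 libraries were taken by Euclidean distance of log2(CPM + 5), centred on each gene's mean, over the 2269 genes that reached 100 CPM in any of them. With 4 points this is a description. Nearest to Mt2 were Cdc42ep4 (distance 0.26), Vmn1r65 (0.59) and Hmox1 (0.66), all high in microglia with WBRT. Nearest to Gstm1 were Slc40a1 (0.96), the cellular iron exporter, Igf1 (1.28) and Lyz2 (1.32), the lysozyme gene of macrophages, all higher with WBRT in both sorts. Nearest to Gclm were Adam8 (0.33), Fabp5 (0.39) and Lgals3 (0.43), the last 2 encoding a lipid-binding protein and galectin-3. Srxn1 lay nearest to Lmo2 (0.17), Hsd17b4 (0.22) and Mgrn1 (0.24), and Txnrd1 to Hfe (0.11), Ppp1ca (0.13) and Copz1 (0.15). Prdx1 lay nearest to P2rx7 (0.09), a receptor for extracellular ATP, Orai1 and Pnpla2 (0.12 each), and Mt1 to Gng12 (0.11), Zfand5 (0.12) and Cd164 (0.13). Sod1 lay near Icosl (0.08) and Daxx (0.13), and Gpx1 to Csf2rb (0.02), Stat6 (0.07) and Irf2bp2 (0.08).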

How the data were processed

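The deposited files are 1 table per plate of estimated counts of unique transcripts per gene and well, made by the authors. The values are UMI counts corrected for repeated identifiers: 100% lie within 0.0051 of the value that 4096 possible identifiers give. The plates were made by a single-cell service with the method of Muraro et al., per the labels' protocols, and GRCm38 is the build in the submitters' processing notes. Aligner, counter and annotation were not given in the sources used here. Well names are plate positions and recur in every table. The genes and all gene lists were chosen with earlier results of these data known, as were the splits of wells by markers and Malat1.

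Wells with at least 1000 counts outside ERCC and mitochondrial rows and an ERCC share under 50% were pooled per plate (1151350 and 2325120 transcripts for BMDM without and with WBRT, 785624 and 589445 for microglia). CPM exclude ERCC and mitochondrial rows. Because each group is 1 plate, no test was run. CPM have exact Poisson intervals and folds exact conditional binomial intervals, at 95%. A gene was compared at 20 CPM or more in 1 of 2 libraries, with a pseudocount of 5 CPM and a 2-fold limit. A gene with at most 3 counts on both sides got no fold. For shares of wells, each well was also thinned to 1000 UMIs, which left out no kept well. Named pathway genes were drawn from at most 4 per list and comparison with at least 50 CPM, by size of the log2 ratio. The search for similar patterns skipped ribosomal protein, mitochondrial and predicted genes known by a number. Some named genes that met these rules are not reported here. No doublet caller and no clustering were run. Alternatives covered well filters, totals, edgeR's TMM factors, ERCC scaling, weighting, thinning, pseudocounts, filters and wells left out. The calculations were tested on simulated data. Promoters are from RefSeq. Python 3.11.15, numpy 2.4.6, pandas 2.3.3, scipy 1.17.1, matplotlib 3.10.9, R 4.3.3 and edgeR 4.0.16 were used.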

Additional observations from a re-analysis of the deposited data

Results flagged for a closer look

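The wells left out of the report, with medians of 67.0 to 139 transcripts, also held transcripts of these genes, and for 5 of them the level differed between plates by more than counting error. In wells left out of the microglia plates, Mt1 stood 1.61-fold (1.21 to 2.17) higher with WBRT, Mt2 29.6-fold (5.06 to 1195), Srxn1 8.19-fold (1.23 to 348), Prdx1 2.51-fold (1.88 to 3.41) and Gpx1 1.58-fold (1.02 to 2.49). Mt2 and Srxn1 had 1 count each there without WBRT, against 47.04 and 13 with it. Gpx1 was lower with WBRT in the kept wells and higher in those left out. In wells left out of the BMDM plates, Mt1 stood 2.29-fold (1.18 to 4.70) higher with WBRT, and Mt2 7.43-fold (1.03 to 326), from 1 count without and 9 with it. Wells left out of microglia with WBRT include 15 with enough transcripts but an ERCC share of 50% or more, a kind of well the other 3 plates lack.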

How the results depend on the processing

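No paired analysis was possible because each group is 1 plate. Over the 21 alternatives the microglia log2 ratios stayed above 0 for Mt2 (0.77 to 3.21, the lowest in Malat1-retaining wells with few markers of other cells), Gstm1 (1.78 to 4.44) and Gclm (0.52 to 2.34). Per ERCC count, the microglia median was -0.69 with 2 genes higher and 3 lower and Srxn1 at -0.27, and the BMDM median was -0.13 with 1 higher. Of all genes called, 54.5% were higher in microglia and 43.6% in BMDM on CPM, and 0.76% and 23.1% per ERCC count. The BMDM median of 0.10 was 0.40 with every well weighted alike (0 lower), 0.33 after thinning, 0.34 in Malat1-retaining wells with few markers of other cells (1 higher) and 0.37 in Malat1-poor wells (1 higher, Srxn1 at -0.99). The BMDM count of 2 higher was 1 with a pseudocount of 20 CPM, 1 without wells of 2 or more dendritic cell markers and 0 at 100 CPM or more, where 5 of the genes were compared. It was 3 after thinning. The microglia count of 4 higher was 6 with wells weighted alike, 5 after thinning, 5 with no filter on low values (where Nqo1 enters), and 3 at a minimum of 3000 counts and in each of the 3 sets of Malat1-retaining wells. Microglia had 1 lower without Malat1-poor wells and 1 in Malat1-retaining wells with few markers of other cells. Beyond the alternatives whose construction leaves out wells or genes, the cause was not tested. The alternatives chosen after seeing the data were 4 on wells (without the 14-marker well, only Malat1-poor wells, only Malat1-retaining wells with fewer than 3 astrocyte markers, without dendritic-marker wells), the pathway genes without astrocyte-marker wells, and Mt2 in Mt1-rich wells without the leading well. Depth limits Gstm1 and Gclm in microglia without WBRT, which had 9 and 16 counts, and Nqo1 everywhere.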
